A study of Mus musculus with 4 samples.

Results

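The RNA of 7 chemokine receptors, Cxcr6, Cxcr3, Cxcr4, Ccr2, Ccr9, Ccr4 and Ccr8, was followed in T cells sorted from mouse tumors. These 7 genes were chosen by symbol from the 32285 genes in the filtered count matrices, and all 7 were present. The cells came from subcutaneous tumors grown from 105K, a Tsc2-deficient mouse kidney tumor line, in wild-type male C57BL/6J mice. Tumor cells carried either a non-targeting hairpin (sh_NC, called control) or a hairpin against B7-H3, the immune checkpoint ligand encoded by Cd276 (sh_B7-H3 (1), called knockdown). Both groups shared the Tsc2-deficient line and the wild-type host, so the T cells themselves carried no hairpin, and 1 hairpin stood for the knockdown. For each group 80 tumors were pooled, CD3+ T cells were sorted, and RNA and antibody tags were counted in single cells by CITE-seq in 2 libraries. The labels describe the libraries of a group as duplicate lanes, whereas a figure legend of the study calls them independent samples of pooled tumors. Every p-value below therefore measures the spread between 2 libraries of pooled tumors, which may be technical, and not the spread between mice. The target of the hairpin sits in the tumor cells, so its RNA in sorted T cells checks nothing about the knockdown.

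Chemokine receptors are G protein-coupled receptors that read gradients of small secreted proteins, the chemokines, and steer migrating leukocytes through tissues. T cells change the set they carry as they leave the naive state: resting cells carry receptors for lymph node and gut or thymus signals, and activated cells carry receptors for inflamed tissue. CXCR6 binds CXCL16, and CXCR3 binds the interferon-induced CXCL9 and CXCL10. CXCR4 binds CXCL12, CCR2 binds CCL2, and CCR9 binds CCL25 of thymus and small intestine. CCR4 binds CCL17 and CCL22, and CCR8 binds CCL1; both are well known on regulatory T cells.

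Of 18312 cells kept, 5273 were called Cd4 cells (at least 1 Cd4 UMI, at most 1 Cd8a or Cd8b1 UMI and no Foxp3 UMI), 7356 Cd8 cells (at least 3 Cd8a or Cd8b1 UMIs and neither Cd4 nor Foxp3) and 632 Foxp3 cells (as Cd4 cells but with at least 1 Foxp3 UMI). A UMI is 1 counted RNA molecule. Per library there were 870 to 1815 Cd4 cells, 1074 to 2566 Cd8 cells and 132 to 193 Foxp3 cells, and 24.5% to 30.6% of kept cells fell in no class. Called cells held 79224898 to 132820909 RNA UMIs per library, and the median depth of kept cells was 7773 and 8235 UMIs in control and 6281 and 6477 in knockdown. The classes matched their protein tags: the median CD8b tag count was 36 to 68.5 in Cd8 cells and 2 or 3 in Cd4 cells, and the median CD4 tag count was 5 to 11 in Cd4 cells and 1 in Cd8 cells. The 8 myeloid markers summed to 45.3 and 28.5 CPM (UMIs scaled to a fixed library total) in control and 120 and 65.2 CPM in knockdown Cd4 cells, to 14.6 to 76.5 CPM in Cd8 cells, where they were also higher in knockdown, and to 46.8 to 134 CPM in Foxp3 cells. The 2 gamma-delta T cell markers summed to 8.38 to 12.6 CPM in control and 38.1 to 45.1 CPM in knockdown Cd4 and Cd8 cells. In Cd4 cells the rise lay in Tcrg-C1, at 4.37 and 2.14 CPM in control and 31.4 and 40.2 CPM in knockdown. Trdc was 7.73 and 6.27 CPM against 6.75 and 4.45 CPM there, and in Cd8 cells both were higher in knockdown. Of the 3 NK cell markers, Ncr1 was at 0 in all 3 classes and Klrb1c at 0 to 1.05 CPM. Klra8 was at 0 except for 0.148 CPM in the Cd8 cells of control replicate 2. The part of other cells in the results was not tested. Between 17 and 35 cell barcodes were shared by any pair of libraries.

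Of the 7 genes, 5 lie on chromosome 9 (GRCm38), where Ccr9 (123678439 to 123784330, plus strand), Cxcr6 (123806475 to 123811760, plus) and Ccr2 (124101950 to 124113557, plus) lie in a row, with 22.1 kb and no protein-coding gene wholly between Ccr9 and Cxcr6, and 290.2 kb and 4 protein-coding genes between Cxcr6 and Ccr2. Ccr4 (114490316 to 114504916, minus) and Ccr8 (120092114 to 120094906, plus) lie apart on the same chromosome, Cxcr4 lies on chromosome 1 (128588199 to 128592293, minus) and Cxcr3 on chromosome X (101731535 to 101734269, minus). Cxcr6 sits within the span of Fyco1, a gene on the opposite strand, with 0 overlapping exons. Fyco1 was 17.8 to 24.7 CPM in Cd4 cells and did not pass the test there (log2 fold change 0.26, SE 0.11, adjusted p = 0.0634). The annotation lists 6 genes that overlap Ccr9, of which the lincRNA Gm17200 shares an exon overlap on the same strand, so that reads there could be split between them. Promoters (250 bases before to 50 after the start, RefSeq, GRCm38.p6) are shown for 3 genes called in Cd8 cells, the 2 chromosomal neighbors Cxcr6 and Ccr9, which went opposite ways, and Cxcr4, which fell. Capitals mark GGTGTG, the T-box core, or TGTGGT, the RUNX core, on either strand.
Cxcr6, chr9:123806227-123806526, plus strand: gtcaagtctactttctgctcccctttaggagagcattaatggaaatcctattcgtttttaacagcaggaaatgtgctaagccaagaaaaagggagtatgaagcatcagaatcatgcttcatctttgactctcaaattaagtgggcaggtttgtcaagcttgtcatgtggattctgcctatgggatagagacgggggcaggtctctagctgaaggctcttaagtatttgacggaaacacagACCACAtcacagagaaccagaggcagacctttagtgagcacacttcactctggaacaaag
Ccr9, chr9:123766961-123767260, plus strand: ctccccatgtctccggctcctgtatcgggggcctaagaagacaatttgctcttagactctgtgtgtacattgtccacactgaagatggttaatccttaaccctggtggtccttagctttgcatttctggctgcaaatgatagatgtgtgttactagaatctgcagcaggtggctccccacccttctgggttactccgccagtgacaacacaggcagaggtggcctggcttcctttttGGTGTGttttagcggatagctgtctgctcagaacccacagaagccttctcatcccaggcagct
Cxcr4, chr1:128592250-128592549, minus strand: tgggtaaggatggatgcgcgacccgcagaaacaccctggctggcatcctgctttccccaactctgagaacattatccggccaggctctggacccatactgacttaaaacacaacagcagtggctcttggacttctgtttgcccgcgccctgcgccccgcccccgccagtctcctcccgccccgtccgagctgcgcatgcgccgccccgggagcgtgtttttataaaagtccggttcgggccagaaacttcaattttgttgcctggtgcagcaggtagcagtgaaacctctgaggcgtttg
The Cxcr6 window held 1 RUNX core, read on the reverse strand as ACCACA, the Ccr9 window 1 T-box core, and the Cxcr4 window neither. The Cxcr3 window held 2 RUNX cores. The T-box core occurred in 19% and the RUNX core in 16.9% of 27025 promoters of the same length. The 2 cores can overlap, since TGTG is in both. The STAT motif TTCCNGGAA was in 1.15% of promoters and in none of the 7. These matches are a description of the letters only.

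The receptors were first compared between classes over all 4 libraries, as CPM in the sum of all cells of a class (CPM here carry edgeR's TMM scaling). In such sums fewer cells with a gene and less RNA per cell cannot be told apart. Foxp3 cells carried the most Ccr2, Ccr4, Ccr8, Cxcr3 and Cxcr4, Cd8 cells the most Ccr9, and Cd4 and Cd8 cells the most Cxcr6. In the test of Foxp3 against Cd4 cells 10.1% of 11027 genes were called, and 6 of the 7 receptors, 5 higher and 1 lower, in Foxp3 cells. Ccr2 was 292 to 325 CPM in the 4 Foxp3 libraries and 10.3 to 12.8 CPM in the 4 Cd4 libraries (log2 fold change 4.53, SE 0.090, adjusted p = 9.47e-33). Ccr4 and Ccr8, at 12.9 to 22.3 CPM and 16.7 to 32.2 CPM in Foxp3 cells, were higher than in Cd4 cells by 3.07 (SE 0.29) and 2.91 (SE 0.27) on the log2 scale. Cxcr3 was higher by 2.43 (SE 0.11) and Cxcr4 by 1.46 (SE 0.13), and Cxcr6 was lower (log2 fold change -1.91, SE 0.077). For Cd8 against Cd4 cells 4.9% of genes were called and 4 receptors. Ccr9 was 38.3 to 88.0 CPM in Cd8 and 2.90 to 4.69 CPM in Cd4 cells (log2 fold change 4.13, SE 0.088, adjusted p = 1.61e-31), Cxcr3 was higher by 1.45 (SE 0.075), and Ccr4 and Ccr8 were lower, with 0 to 6 UMIs of each in any Cd8 library. Cxcr6 was higher in Cd8 cells by 0.56 (SE 0.033) as an average over both groups, under the 2-fold limit; control libraries had 191 and 216 CPM in Cd8 against 102 and 119 in Cd4 cells, whereas knockdown libraries had 660 and 582 against 657 and 655 CPM. Cxcr4 (log2 fold change 0.21, SE 0.091, adjusted p = 0.0742) and Ccr2 (0.13, SE 0.11) did not differ past the test between Cd8 and Cd4 cells on that average. For Ccr2 the groups went opposite ways, with means of 6.11 CPM in Cd8 against 11.8 in Cd4 cells in control and of 20.6 against 10.9 in knockdown. Foxp3 and Cd8 cells were not tested against each other.

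**Figure D1:**
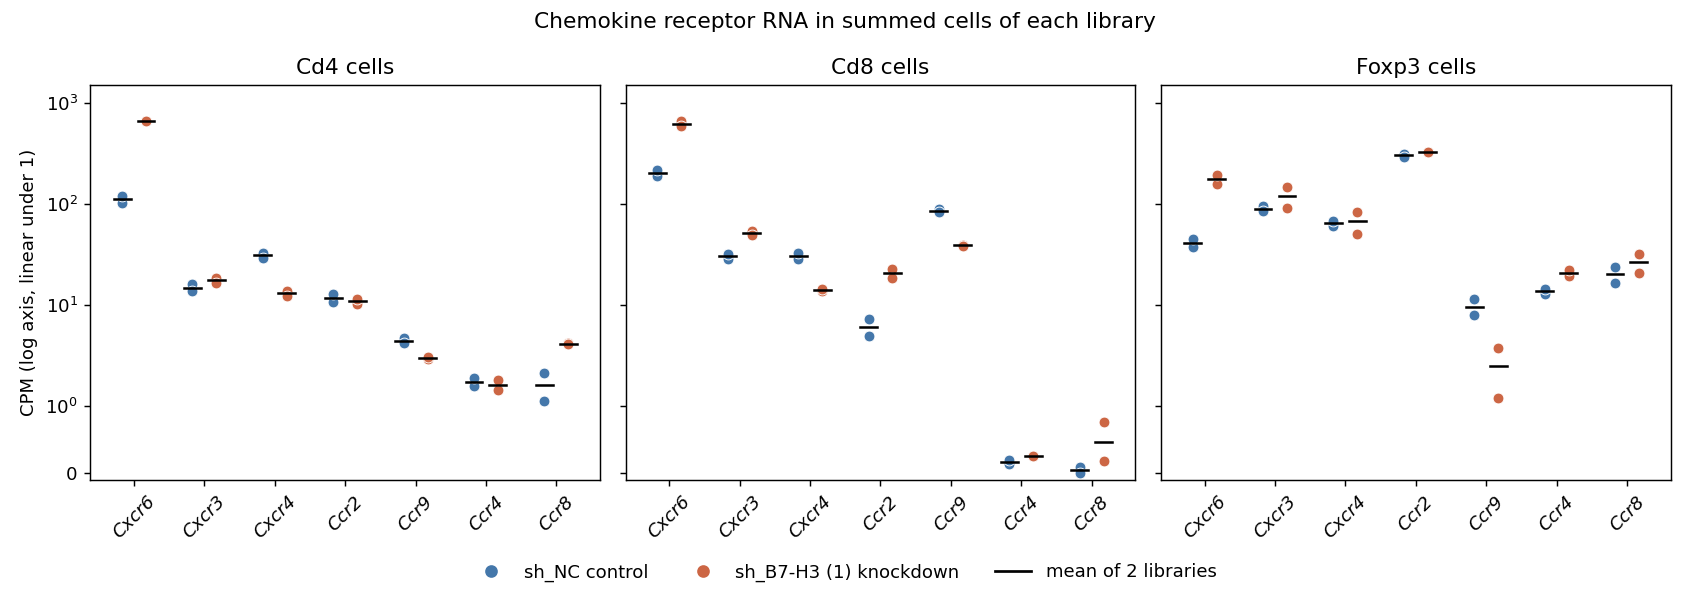
RNA level of each receptor in the summed Cd4, Cd8 and Foxp3 cells of each library, in CPM on a log axis that is linear under 1; points are libraries and bars the mean of 2. Knockdown Cxcr6 lies above control in all 3 classes, Ccr2 is highest in Foxp3 cells, Ccr9 in Cd8 cells, and Ccr4 and Ccr8 are near 0 in Cd8 cells.

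Knockdown was then compared with control within each class, to ask which receptors differed in T cells from tumors with less B7-H3. In Cd4 cells 11.6% of all 11238 genes tested were called (adjusted p under 0.05 and at least a 2-fold difference), and 3 of the 7 receptors were among them. Cxcr6 was 102 and 119 CPM in the control libraries and 657 and 655 CPM in the knockdown libraries. The groups did not overlap, and the log2 fold change of 2.57 (SE 0.047, adjusted p = 3.74e-29) was the largest of the 7. Cxcr4 was 32.8 and 29.0 CPM in control and 13.9 and 12.2 CPM in knockdown, so it fell (log2 fold change -1.26, SE 0.12, adjusted p = 9.56e-11). Thinning all cells to 2000 UMIs moved it to -0.95 and mitochondrial UMIs up to 10% to -0.99, both under the 2-fold limit. Empty droplets, which measure free RNA, held Cxcr4 at 48.3 and 41.6 CPM in control and 30.1 and 19.0 CPM in knockdown, above the Cd4 and Cd8 cells of every library, also without TMM scaling, and lower in knockdown too, and the part of free RNA in the fall was not tested. Ccr8 rose from 1.12 and 2.14 CPM to 4.19 and 4.10 CPM (log2 fold change 1.37, SE 0.33, adjusted p = 0.000845), on only 15, 25, 26 and 32 UMIs, and without control replicate 1 its adjusted p was 0.0566 and with stricter classes its log2 fold change 0.97. The 5 regulatory T cell markers, of which Foxp3 is at 0 by the class rule, summed to 167 and 179 CPM in control and 403 and 401 CPM in knockdown Cd4 cells, with Ikzf2 at 41.2 and 48.7 against 184 and 183 CPM and Il2ra at 6.59 and 8.41 against 7.25 and 9.17 CPM; their part in the Ccr8 value was not tested. Cxcr3 (log2 fold change 0.23, SE 0.13, adjusted p = 0.156), Ccr2 (-0.10, SE 0.15), Ccr9 (-0.57, SE 0.27, adjusted p = 0.0896) and Ccr4 (-0.062, SE 0.38) did not pass the test. With stricter classes Cxcr3 turned to -0.59 (adjusted p = 0.00734), Ccr2 was at -0.92 (adjusted p = 0.00538) and Ccr9 at -0.999 (adjusted p = 0.049), and without an upper limit on genes Ccr9 was at -0.66 (adjusted p = 0.0399); each passed the adjusted p and lay under the 2-fold limit.

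In Cd8 cells 10.4% of 11526 genes were called, and 4 receptors were. Cxcr6 was 191 and 216 CPM in control and 660 and 582 CPM in knockdown (log2 fold change 1.61, SE 0.052, adjusted p = 4.19e-18). Ccr2 was 4.92 and 7.30 CPM in control and 22.9 and 18.3 CPM in knockdown (log2 fold change 1.74, SE 0.15, adjusted p = 7.47e-10). Both rose, and for neither did the groups overlap. Ccr2 is also a gene of monocytes, and the summed myeloid markers of Cd8 cells were 14.6 and 20.8 CPM in control and 60.5 and 76.5 CPM in knockdown. Cells with at least 3 myeloid UMIs held 1.66% to 2.89% of Ccr2 UMIs in the Cd8 cells of each library, and without them the log2 fold change was 1.76. Ccr9 fell from 88.0 and 83.7 CPM to 39.1 and 38.3 CPM (log2 fold change -1.15, SE 0.058, adjusted p = 2.09e-14). Cxcr4 fell from 28.7 and 32.8 CPM to 13.6 and 14.5 CPM (log2 fold change -1.12, SE 0.096, adjusted p = 5.43e-10). Cxcr3 was 28.7 and 32.1 CPM in control and 53.3 and 49.4 CPM in knockdown; its adjusted p was 2.71e-09, but the log2 fold change of 0.75 (SE 0.070) was under the 2-fold limit. Ccr4 (2 to 4 UMIs per library) and Ccr8 (0 to 6) were left out by the filter on low counts. Without doublet removal Ccr8 passed that filter and was called higher (log2 fold change 2.93, SE 0.68, adjusted p = 0.00145), whereas Ccr9 was no longer called, so that the 4 receptors called there were not the same 4. With doublets removed Ccr8 had 2 and 0 UMIs in control and 6 and 2 in knockdown. Near 0 in control, it could pass the filter only through knockdown and so only come out higher, which limits that count. The fall of Cxcr4 and Ccr9 was close to the 2-fold limit: with mitochondrial UMIs allowed up to 10% their log2 fold changes were -0.97 and -0.85, Ccr9 was at -0.99 without doublet removal, and Cxcr4 at -0.99 with the doublet threshold at 0.8. Empty droplets held Ccr9 at 49.4 and 48.0 CPM in control and 40.1 and 43.5 CPM in knockdown, on a scale without TMM, on which Cd8 cells were at 84.8 and 81.9 CPM in control, above the droplets, and at 40.4 and 39.3 CPM in knockdown, near them. For Ccr2 the droplets were at 17.7 and 18.1 CPM in control and 22.6 and 25.6 CPM in knockdown. Cd8 cells on that scale were at 4.74 and 7.15 CPM in control, under the droplets, and at 23.6 and 18.8 CPM in knockdown, above them in 1 library and under them in the other. The part of free RNA in these 2 results was not tested.

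In Foxp3 cells 0.382% of 7587 genes were called, and Cxcr6 was the 1 receptor called among 6 tested. It was 37.1 and 45.2 CPM in control and 157 and 195 CPM in knockdown (log2 fold change 2.10, SE 0.17, adjusted p = 1.13e-06). Ccr2, the receptor with the most RNA in these cells, was 310 and 292 CPM in control and 325 and 323 CPM in knockdown (log2 fold change 0.10, SE 0.097, adjusted p = 0.748). Cells with at least 3 myeloid UMIs held 0.746% to 10.3% of these Ccr2 UMIs, with the highest share in the second knockdown library. Cxcr3 had a log2 fold change of 0.42 (SE 0.18, adjusted p = 0.392), with knockdown libraries at 148 and 91.7 CPM, so that the 2 libraries of 1 group differed by more than the groups did; it was 0.028 without knockdown replicate 1 and 0.71 (adjusted p = 0.0134) without knockdown replicate 2. Ccr4 and Ccr8 had log2 fold changes of 0.61 (SE 0.35) and 0.38 (SE 0.33), and Cxcr4 of 0.063 (SE 0.21); none passed. Ccr9, on 15, 10, 1 and 3 UMIs, was left out by the filter on low counts.

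The difference in effect between classes was tested with an interaction term over all 12 sums, where 0.88% of genes differed between Cd8 and Cd4 cells and 2.74% between Foxp3 and Cd4 cells. Ccr2 was the 1 receptor called for Cd8 against Cd4, with a knockdown effect higher by 1.84 on the log2 scale in Cd8 cells (SE 0.21, adjusted p = 6.30e-08). The effect on Cxcr6 was lower by 0.97 in Cd8 than in Cd4 cells (log2 difference -0.97, SE 0.065, adjusted p = 4.92e-14), just under the 2-fold limit. For Foxp3 against Cd4 cells Cxcr4 was called (log2 difference 1.32, SE 0.24, adjusted p = 0.00025). It fell in Cd4 cells and lay at 59.8, 68.2, 50.9 and 83.0 CPM in the control and knockdown Foxp3 libraries. Without knockdown replicate 2 that difference was 0.83 (adjusted p = 0.194).

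**Figure D2:**
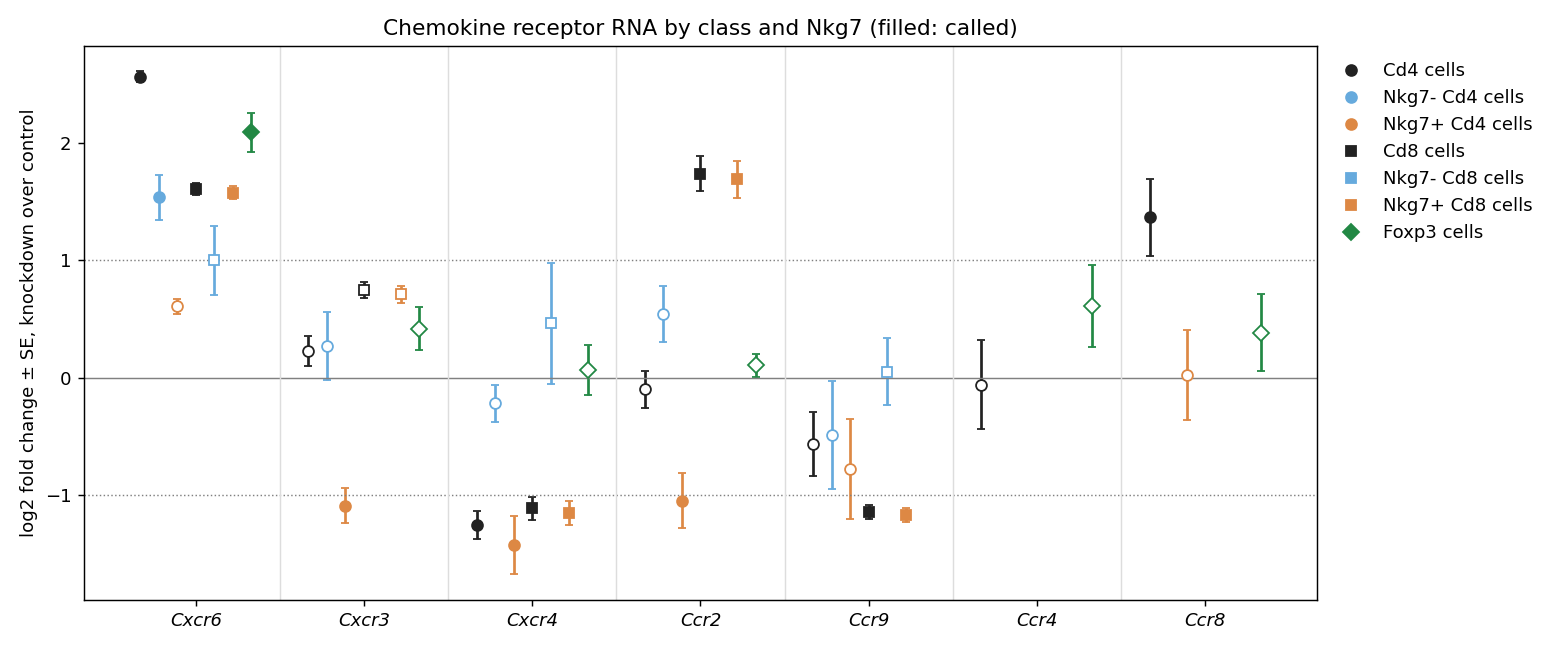
Log2 fold change (knockdown over control) ± SE of each receptor by class, and by class in cells with and without an Nkg7 UMI; filled points passed the test and dotted lines mark a 2-fold difference. Cxcr6 is at 2.57 in Cd4, 1.61 in Cd8 and 2.10 in Foxp3 cells and at 0.61 in Nkg7+ Cd4 cells.

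Shares of cells with a receptor UMI were compared with every cell thinned to 2000 UMIs, which took away the difference in depth. Cells under 2000 UMIs, 0 to 27 per class and library, were left out. With 2 libraries a group the exact permutation test (two-sided) cannot go below p = 0.333, so shares are given by their values. Cxcr6 was found in 8.61% and 10.5% of control Cd4 cells and in 50.9% and 48.9% of knockdown Cd4 cells. In Cd8 cells it was found in 25.4% and 28.1% against 61.0% and 58.3%, and in Foxp3 cells in 4.66% and 8% against 13% and 16.9%. The libraries of the 2 groups did not overlap in any class. The size of the contrast depended on the depth: the ratio of the mean shares was 4.36 unthinned, 5.22 at 2000 and 5.55 at 1000 UMIs in Cd4 cells, 1.43, 2.23 and 2.67 in Cd8 cells, and 2.06, 2.36 and 4.00 in Foxp3 cells. Unthinned, Cxcr6 was found in 55.1% and 58.4% of control and 81.8% and 80.1% of knockdown Cd8 cells. Positive Cd4 cells held 2.59 to 2.89 Cxcr6 UMIs each in all 4 libraries at this depth, and the groups overlapped. Without thinning they held 6.08 and 6.6 UMIs in control and 8.05 and 7.99 in knockdown, which did not overlap although knockdown cells were shallower. At 2000 UMIs, positive Cd8 cells held 1.84 and 1.92 Cxcr6 UMIs in control and 2.51 and 2.41 in knockdown.

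Ccr9 went the other way in Cd8 cells, from 14.2% and 12.7% to 6.37% and 5.00% of cells. Cxcr4 went from 5.85% and 5.53% to 3.5% and 2.88% of Cd4 cells and from 5.31% and 6.06% to 2.43% and 2.57% of Cd8 cells. Ccr2 was found in 1.02% and 1.35% of control and 3.09% and 3.38% of knockdown Cd8 cells, and in 28.5% to 36.2% of Foxp3 cells in any library. Cd4 cells with a Ccr7 UMI but no Cd44 or Nkg7 UMI, a resting pattern that should lack Cxcr6, had it in 0.313% and 0.381% of cells in control and 4.08% and 3.76% in knockdown at the same depth. These shares rest on few positive cells in each library. Only 5 to 91 Cd8 cells per library had that pattern, so no share is given for them. Empty droplets held Cxcr6 at 102 and 107 CPM in control and 302 and 308 CPM in knockdown, so free Cxcr6 RNA was also higher in knockdown. In each library the Foxp3 cells lay under the empty droplets, and the part of free RNA in the Cxcr6 difference of Foxp3 cells was not tested. Without TMM scaling, knockdown Cd4 cells, at 687 and 670 CPM, lay above them, whereas control Cd4 cells, at 98.5 and 115 CPM, lay near them.

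**Figure D3:**
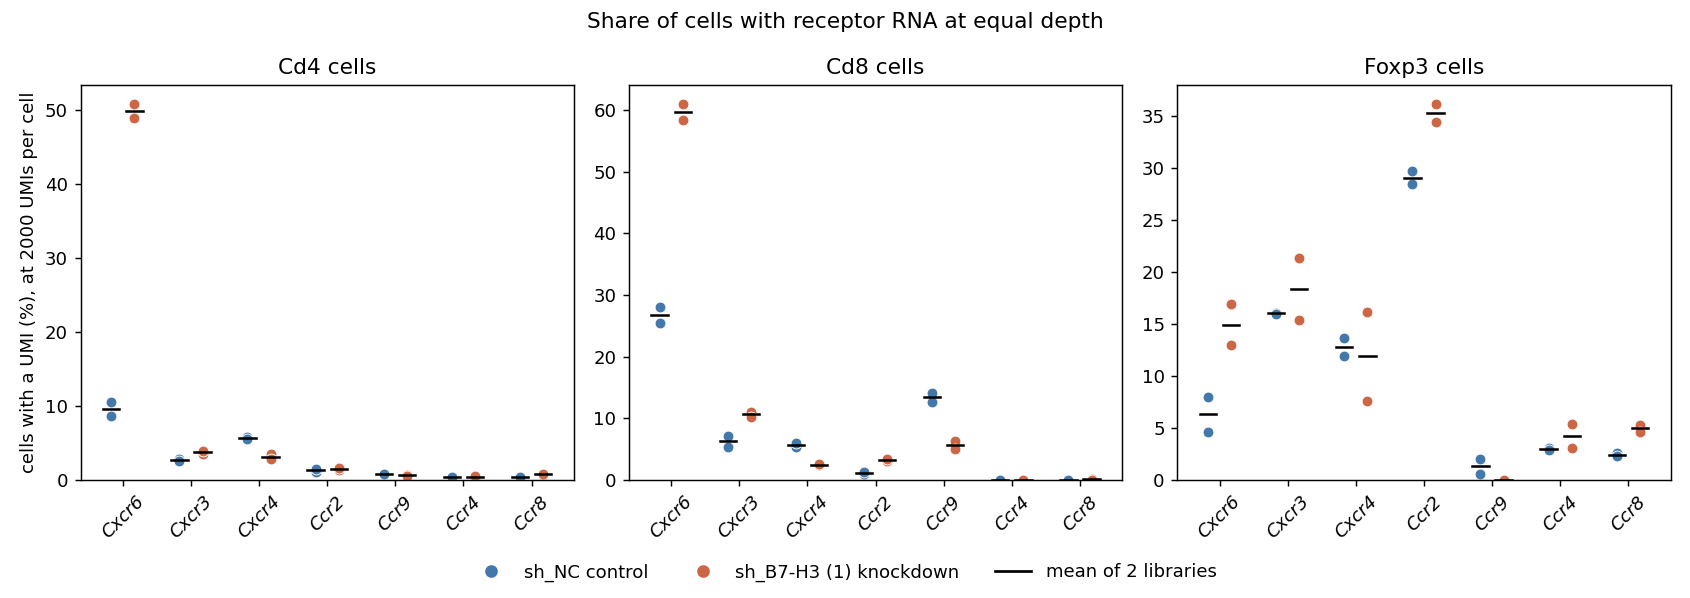
Share of cells (%) with at least 1 UMI of each receptor after thinning to 2000 UMIs per cell, for each library; bars are means of 2. Cxcr6 separates the groups in each class, and Ccr2 is found in 28.5% to 36.2% of Foxp3 cells.

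Each class mixed resting and activated cells, and the mix moved with the group. Nkg7, a cytotoxic granule gene, was found in 16.4% and 17.6% of control and 69.5% and 70.0% of knockdown Cd4 cells. In Cd8 cells it was found in 94.5% and 96.2% against 98.4% and 98.1%, and in Foxp3 cells in 16.6% and 15.4% against 48.5% and 53.8%, so that it moved with Cxcr6 there too; Foxp3 cells were not split by it, and its part in their Cxcr6 value was not tested. Empty droplets held Nkg7 at 538 and 557 CPM in control and 1389 and 1381 CPM in knockdown, so a single Nkg7 UMI can also come from free RNA. Of all Cxcr6 UMIs in Cd4 cells, 91.8% to 99% lay in cells with Nkg7. Nkg7 was chosen after these values were seen, and it is one of the genes most like Cxcr6 in level, so that the split describes the mix and is no independent test. The part that the mix plays in each class-level value was not tested, but the receptors were measured again in cells with Nkg7 (Nkg7+) and without it (Nkg7-).

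In Nkg7+ Cd4 cells Cxcr6 was 604 and 680 CPM in control and 986 and 972 CPM in knockdown. The groups did not overlap, and the log2 fold change was 0.61 (SE 0.064, adjusted p = 7.41e-10), against 2.57 in all Cd4 cells. The size depended on the gene that split the class: by Cd44, an activation gene found in 14.6% to 25.3% of Cd4 cells, the log2 fold change of Cxcr6 was 1.95 (SE 0.069, adjusted p = 1.43e-12) in cells with Cd44 and 2.72 (SE 0.053) in those without. In Nkg7+ Cd4 cells 2.24% of 9633 genes were called, and 3 of the 6 receptors tested, all of which fell. Cxcr4 was 20.1 and 25.7 CPM in control and 9.32 and 7.68 CPM in knockdown (log2 fold change -1.43, SE 0.25, adjusted p = 4.73e-05). Cxcr3, which was not called in all Cd4 cells, was 49.3 and 45.0 CPM against 21.6 and 22.5 CPM (log2 fold change -1.10, SE 0.15, adjusted p = 4.19e-07). Ccr2 was 20.1 and 25.1 CPM against 9.81 and 11.7 CPM (log2 fold change -1.05, SE 0.24, adjusted p = 0.00145). Cxcr3 and Ccr2 lay close to the 2-fold limit: with cells thinned to 2000 UMIs Cxcr3 was at -0.90 and Ccr2 had an adjusted p of 0.141, and DESeq2 gave Ccr2 an adjusted p of 0.0644. Ccr2 was at -0.88 without control replicate 2 and at -0.94 without knockdown replicate 1. In Cd4 cells with Cd44 neither was called, with Cxcr3 at -0.81 (adjusted p = 0.00739) and Ccr2 at -0.43 (adjusted p = 0.152), and the 2 receptors called there, beside 9.86% of 8923 genes, were Cxcr6, which was higher, and Cxcr4, which was lower. Ccr8, which rose in all Cd4 cells, was 4.31 and 6.81 CPM in control and 5.40 and 5.76 CPM in knockdown (log2 fold change 0.024, SE 0.38, adjusted p = 0.986), and the groups overlapped.

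In Nkg7- Cd4 cells 0.919% of 10115 genes were called, and Cxcr6 was the 1 receptor among 5 tested. It was 9.21 and 8.88 CPM in control and 29.6 and 23.7 CPM in knockdown (log2 fold change 1.54, SE 0.19, adjusted p = 3.28e-08), on 113, 94, 53 and 52 UMIs, under the level of the empty droplets in every library. Cxcr4 was 32.4 and 27.4 CPM there against 26.8 and 25.0 CPM (log2 fold change -0.22, SE 0.16, adjusted p = 0.592). In Cd4 cells without Cd44, where 9.08% of 10737 genes were called, Cxcr4 was called lower (log2 fold change -1.06, SE 0.12, adjusted p = 2.19e-07). The difference in effect between cells with and without Nkg7 was not tested.

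Since nearly all Cd8 cells had Nkg7, the Nkg7+ Cd8 cells repeated the values of the whole class, with 10.5% of 11493 genes called and the same 4 receptors. The naive markers Ccr7, Lef1 and Tcf7 summed to 640 and 616 CPM in control and 252 and 282 CPM in knockdown Cd8 cells. Nkg7 therefore did not separate resting from activated Cd8 cells, and the part of that mix in the Nkg7+ Cd8 values was not tested. Nkg7- Cd8 cells numbered 141, 85, 17 and 29, and there 0.142% of 4211 genes and 0 of 3 receptors were called by edgeR, with Cxcr6 alone at an unadjusted p under 0.05. DESeq2 gave none of these 3 an adjusted p. Cxcr6 was 64.9 and 67.3 CPM in control and 136 and 130 CPM in knockdown (log2 fold change 1.00, SE 0.30, adjusted p = 0.178). Ccr9 was 109 and 105 CPM against 115 and 109 CPM (log2 fold change 0.050, SE 0.29, adjusted p = 0.985), on 121, 81, 11 and 20 UMIs. With cells thinned to 2000 UMIs it was at -1.29 (adjusted p = 0.564). With cells split by Cd44, found in 8.14% to 20.2% of Cd8 cells, Cxcr6 was higher in knockdown by 1.07 (SE 0.080) on the log2 scale in Cd8 cells with Cd44 and by 1.63 (SE 0.053) in those without, and it was called in both, beside 5.7% and 8.89% of all genes. No other receptor was called in Cd8 cells with Cd44. Ccr2 was at 0.97 (adjusted p = 0.00114), Cxcr4 at -0.99 (0.00314) and Ccr9 at -0.80 (0.0752) there, and Cxcr3 turned to -0.42 (0.0265). In Cd8 cells without Cd44, Cxcr4 (-1.11) and Ccr9 (-1.01, adjusted p = 8.88e-13) were called lower. Cd8 cells without Cd44 numbered 2357, 2024, 857 and 1219, most of the class, so they are a different set from the few cells without Nkg7.

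**Figure D4:**
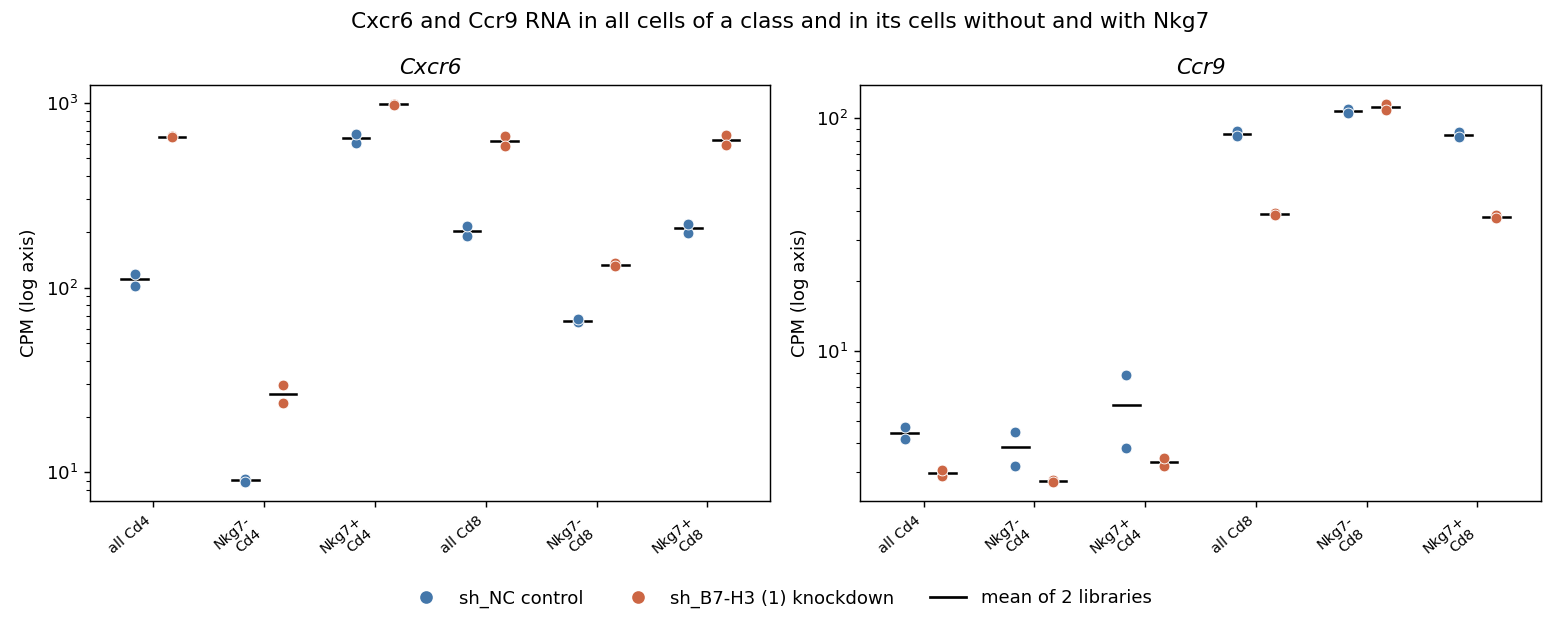
Cxcr6 (left) and Ccr9 (right) in CPM on a log axis, in all cells of a class and in its cells without and with an Nkg7 UMI; points are libraries and bars the mean of 2. Cxcr6 lies between 604 and 986 CPM in every Nkg7+ Cd4 library and under 30 CPM in every Nkg7- Cd4 library, and Ccr9 lies between 105 and 115 CPM in every Nkg7- Cd8 library.

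At 2000 UMIs most cells showed at most 1 of the 7 receptors: 1.93% to 4.74% of Cd4 cells, 8.48% to 12.7% of Cd8 cells and 18.9% to 25.4% of Foxp3 cells showed 2 or more. Among Cd8 cells with a Cxcr6 UMI, Cxcr3 was found in 11.8% to 14.4% of cells against 3.20% to 6.47% of those without, in every library. Ccr9 was found in 11.2%, 8.48%, 1.84% and 2.55% of Cxcr6-positive Cd8 cells against 15.2%, 14.3%, 13.4% and 8.43% of the others. Of the Cd8 cells with a Ccr2 UMI, 76.9%, 70.0%, 87.9% and 82.0% also had Cxcr6, against 24.9%, 27.5%, 60.1% and 57.5% of those without, so that in knockdown most Cd8 cells had it with or without Ccr2. Cells of 1 library share their depth and their free RNA, so these shares are descriptions. In Foxp3 cells with Cxcr3, Ccr2 was found in 48.4% to 60.7% against 24.7% to 33.6% of those without.

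The antibody panel held a tag for each of the 7 receptors, and the tag counts were compared the same way over 197 tags. The tests called 6.6% of tags in Cd4, 7.11% in Cd8 and 2.03% in Foxp3 cells, and 0 of the 7 receptor tags by edgeR in any class. At an adjusted p under 0.05 alone 5, 6 and 6 receptor tags passed, all under the 2-fold limit. The share of all 197 tags at that limit alone is not given here, so these counts and those below cannot be set against all tags. The count in Foxp3 cells rested on single libraries: 1 (CCR4) passed without knockdown replicate 1, 0 without knockdown replicate 2, and 4 to 5 without either control library, by edgeR. Isotype-control tags, which bind no T cell protein, had a median log2 fold change of 0.12 in Cd4, 0.12 in Cd8 and 0.17 in Foxp3 cells. They made up 0.258% to 0.304% of tag counts in control and 0.361% to 0.394% in knockdown libraries of the 3 classes. With scaling by them 5 receptor tags passed in each class: the CXCR3 tag no longer did in Cd8 (log2 fold change 0.071, adjusted p = 0.219) or Foxp3 cells (0.10, adjusted p = 0.141), nor the CXCR6 tag in Foxp3 cells (0.11, adjusted p = 0.0969), while the CCR2 tag in Foxp3 cells now did (-0.28, adjusted p = 0.0305). The CXCR6 tag had a log2 fold change of 0.68 (SE 0.079, adjusted p = 0.00557) in Cd4, 0.66 (SE 0.058, adjusted p = 0.0027) in Cd8 and 0.25 (SE 0.049) in Foxp3 cells. The CXCR4 tag had -0.63, -0.84 and -0.59. The CCR9 tag had -0.67, -0.60 and -0.68 and the CCR4 tag 0.56, 0.59 and 0.55. In control the CCR4 tag held 7.8 and 6.78 counts per cell in Cd8 and 8.05 and 6.95 in Foxp3 cells. Ccr4 RNA was 0.137 and 0.201 against 12.9 and 14.3 CPM there, so that this tag did not follow the RNA between these classes. The CCR9 tag was 1396 and 1479 tag CPM in control Cd4 cells and 1368 and 1325 in control Cd8 cells, while Ccr9 RNA was 4.69 and 4.19 against 88.0 and 83.7 CPM. The CCR8 tag had 0.85 in Cd4 and 0.73 in Foxp3 cells. In Cd8 cells its 0.67 (SE 0.28, adjusted p = 0.104) did not pass, and it was 0.35 without control replicate 1 and 1.08 without control replicate 2. The CCR8 tag held few counts, 1.17, 1.2 and 1.82 per cell in Cd4, Cd8 and Foxp3 cells of control replicate 1. In control replicate 2 it held 1.29, 1.73 and 1.39, where Ccr8 RNA was 2.14, 0 and 23.8 CPM, so there it did not follow the RNA between classes. In Cd4 cells the CCR2 tag stood at 12895 tag CPM in knockdown replicate 1 and 6639 in replicate 2, and its log2 fold change of 0.35 became -0.21 (adjusted p = 0.0382) without replicate 1 and 0.75 (adjusted p = 0.000993) without replicate 2. In Cd8 cells, where Ccr2 RNA rose, the CCR2 tag was 7004 and 6934 tag CPM in control and 5824 and 6045 in knockdown, the opposite direction (log2 fold change -0.23, SE 0.033, adjusted p = 0.00785). The CCR2 tag did not follow the RNA between classes, however. In control replicate 1 it held 33.3, 33.6 and 33.6 counts per cell in Cd4, Cd8 and Foxp3 cells, where Ccr2 RNA was 10.7, 4.92 and 310 CPM. Control replicate 2 had 29.2, 29.0 and 28.5 counts. Its change in Cd8 cells therefore does not show which way CCR2 protein went.

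Cells with and without a UMI of a receptor were set side by side within each library for their tag counts. In Cd4 cells the CXCR6 tag was 2.47 to 3.17 times as high in cells with Cxcr6 RNA as in cells without, and 1.5 to 1.92 times in Cd8 cells. Ratios over isotype-control tags were 2.39 to 3.09 and 1.46 to 1.95. For Ccr9 in Cd8 cells, with 178 to 1001 positive cells per library, the ratio was 0.911 to 0.963. For Cxcr3 in Cd8 cells it was 1.02 to 1.06. For Ccr2 it was 1 to 1.03 in Cd8 and 0.908 to 1.09 in Foxp3 cells. In the Cd4 cells of knockdown replicate 1 it was 0.613 for Cxcr3 and 0.498 for Ccr2. In the other libraries it was 0.949 to 1.06 and 0.958 to 1.07. For Cxcr4 it was 0.953 to 1.15 in Cd4 and 1.04 to 1.34 in Cd8 cells.

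**Figure D5:**
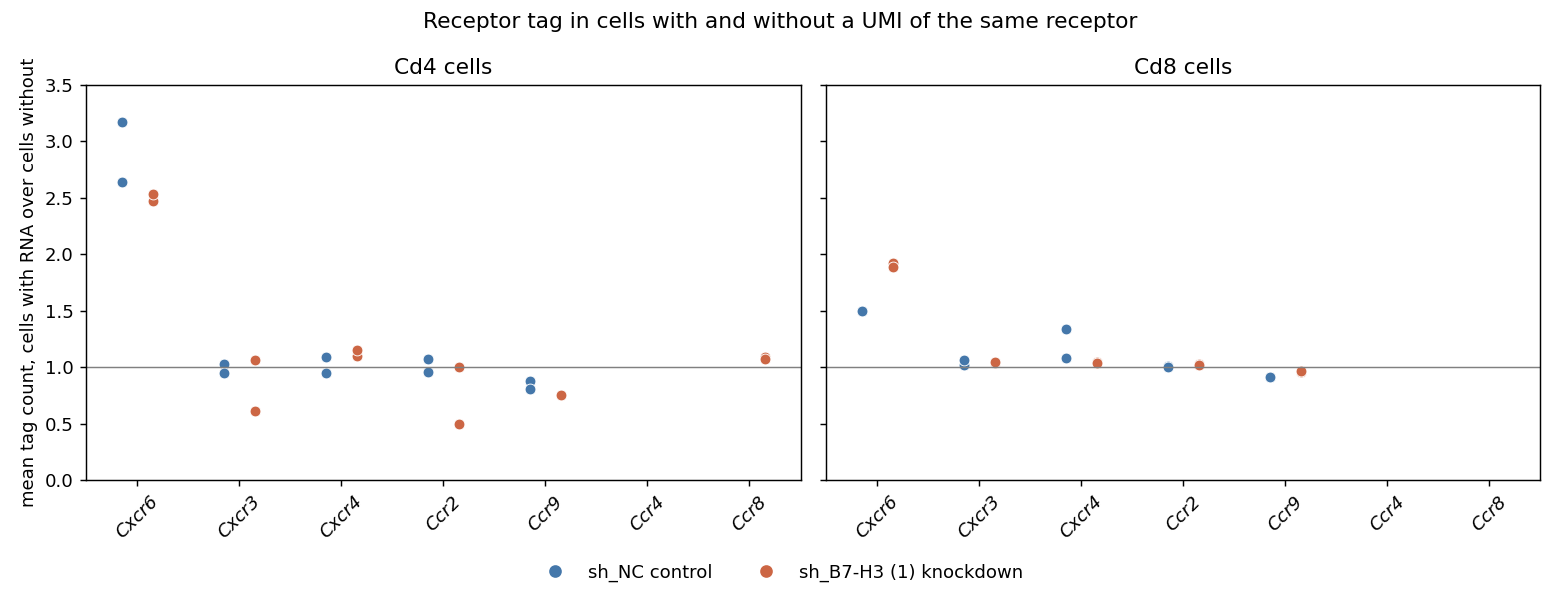
Mean tag count in cells with a UMI of the receptor over that in cells without, per library, for Cd4 (left) and Cd8 cells (right); pairs with under 20 positive cells are not drawn. The Cxcr6 points lie between 1.5 and 3.17, and the Ccr9 points in Cd8 cells between 0.911 and 0.963.

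Other receptors from a list of 15 moved as well. In Cd4 cells 2 of 7 tested rose and 1 fell, beside 11.6% of all genes called, in Cd8 cells 4 of 5 rose and 1 fell, beside 10.4%, and in Foxp3 cells 0 of 5 were called by edgeR, with 1 (Ccr7) at an adjusted p of 0.0131 under the 2-fold limit. In Cd8 cells Ccr1, Cxcr5 and Cx3cr1, all called higher, averaged only 0.69, 2.12 and 5.47 CPM. Ccr1, at 0.046 and 0.302 CPM in control and 1.01 and 1.41 CPM in knockdown, passed the filter on low counts only through knockdown. The median log2 fold change of the tested genes of the list was 0.63, 2.31 and -0.099 in the 3 classes, beside medians of all genes of -0.0040, 0.0050 and -0.0021. In Cd8 cells this median was the value of Cx3cr1. Ccrl2, an atypical chemokine receptor, was 7.44, 8.88, 48.7 and 48.7 CPM in the 2 control and 2 knockdown libraries of Cd4 cells (log2 fold change 2.58, SE 0.11, adjusted p = 2.07e-19) and had 2.46 (SE 0.14) in Cd8 cells. Ccr7, which guides naive cells to lymph nodes, was 184 and 177 CPM in control and 76.1 and 75.3 CPM in knockdown Cd4 cells; it fell by 1.26 on the log2 scale there and by 1.33 in Cd8 cells. In Foxp3 cells Ccr1, Ccr3, Ccr6 and Ccrl2, with log2 fold changes of -0.12, 0.59, -0.099 and 0.47, did not pass.

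Of 12 ligand genes of these receptors, 0 of 8 tested in Cd4 cells and 6 of 9 in Cd8 cells were called, all higher, at 1.28 to 19.8 CPM on average, beside 11.6% and 10.4% of all genes. Cxcl16, Cxcl9, Ccl8 and Ccl1 were at 0.0504 to 0.554 CPM in control and 1.145 to 77.4 CPM in knockdown Cd8 cells. They passed the filter on low counts only through the knockdown libraries and so could only come out higher, which limits this count. Those called in Cd8 cells (Cxcl16, Cxcl9, Ccl2, Ccl12, Ccl8 and Ccl1, most of them known from myeloid cells) stood beside myeloid markers of 14.6 and 20.8 CPM in control and 60.5 and 76.5 CPM in knockdown, whose part was not tested. Ccl1, the ligand of CCR8, had 0.137, 0.0504, 77.4 and 1.76 CPM in Cd8 cells, so 1 library carried its mean. Foxp3 cells had 0 of 3 called. Of 24 signalling genes, Gng2, a G protein gamma subunit, rose in Cd4 (log2 fold change 1.75, SE 0.049, adjusted p = 3.58e-24) and Cd8 cells (1.43, SE 0.046, adjusted p = 3.34e-18), and 1 further gene, Grk3, was called in Cd4 cells at 1.47 CPM. Grk3 was at 0.298 and 0.256 CPM in control and 3.55 and 1.79 CPM in knockdown Cd4 cells. It too passed the filter on low counts only through knockdown and could only come out higher. The other 22 tested signalling genes in each of the 2 classes did not pass both limits, and 0 of 22 were called in Foxp3 cells.

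Genes whose level followed each receptor most closely over the 12 sums were found by Pearson's r among 4609 genes. Sums of 1 library share cells and depth, so r is a description. For Cxcr6 these were Nkg7 (0.99), Eomes (0.99) and Fasl (0.983), genes known from cytotoxic lymphocytes. For Ccr2 they were Rora (0.99), Cd2 (0.989) and Klrg1 (0.984), and for Ccr4 Tspan13 (0.992), Chmp2a (0.991) and Il2ra (0.987). For Cxcr4 they were Itgb7 (0.975), Ighm (0.96) and Rab37 (0.957), and for Ccr9 Epsti1 (0.964), Sec61b (0.963) and Dpp4 (0.96). For Cxcr3 they were Tap1 (0.964), Parp14 (0.961) and Clic1 (0.961), and for Ccr8 Smco4 (0.981), Icos (0.98) and Tpp2 (0.979).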

How the data were processed

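Raw UMI counts for genes and antibody tags were deposited by the authors as filtered 10x matrices (Cell Ranger 6.1.1 in their headers, mm10), with unfiltered matrices whose sums over droplets with 1 to 100 RNA UMIs gave the free RNA. Chromium 3' libraries were made, and cells with 200 to 3000 genes and at most 5% mitochondrial UMIs were kept here. Doublets (15% to 17.3% of cells passing) were removed by the share of simulated doublets among 50 neighbors on 30 components. The study's stated cell total is lower than the 18312 kept here. Counts were summed per library and class and tested with edgeR 4.0.16 (R 4.3.3) quasi-likelihood fits, TMM scaling and filterByExpr, with Benjamini-Hochberg adjustment over all genes tested. A gene was called at adjusted p under 0.05 and a log2 fold change of at least 1. SE is the log2 fold change over the square root of F. Class contrasts used 1 model with library as a block. DESeq2 1.42.0 was an alternative. On data simulated for each class, 191 of 196, 190 of 195 and 183 of 191 changed genes were recovered. The fold differences used and the false calls are not given here. Recovery of genes near the 2-fold limit or with few UMIs cannot be read from these counts. Same-numbered libraries did not deviate together (r = -0.012, 0.019 and 0.041), so no pairing was used. 1 tag without a name was left out. Some genes, and cell states set by them, are not reported here; the split by Nkg7 was added after seeing the data. All 7 receptors are named, other receptors from 10 CPM, up to 4 called ligand or signalling genes per class from 20 CPM, and the 3 most alike genes per receptor. The called ligands of Cd8 cells, Grk3 and, in Cd8 cells, Ccr1, Cxcr5 and Cx3cr1 were named after their values were seen. Receptors, lists and classes were chosen with earlier results of these data known.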

Additional observations from a re-analysis of the deposited data

Results flagged for a closer look

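By the interaction term over the 12 sums, the knockdown effect differed between cell classes at an adjusted p under 0.05 for 3 receptors, of which Ccr2 and Cxcr4 also passed the 2-fold limit and Cxcr6 did not. The share of all genes at the adjusted p alone is not given here, so the count of 3 cannot be set against all genes. Both limits were passed by 0.88% of 11027 genes for Cd8 against Cd4 cells and by 2.74% for Foxp3 against Cd4 cells. For Cxcr6 the effect was lower in Cd8 than in Cd4 cells (log2 difference -0.97, SE 0.065, adjusted p = 4.92e-14), with control at 111 ± 11.8 CPM in Cd4 and 203 ± 17.8 CPM in Cd8 cells (SD, n = 2 libraries, edgeR) and knockdown at 656 ± 1.22 and 621 ± 55.0 CPM. For Ccr2 the effect was higher in Cd8 than in Cd4 cells (log2 difference 1.84, SE 0.21, adjusted p = 6.30e-08), with knockdown above control in 2 of 2 Cd8 libraries. For Cxcr4 the effect was higher in Foxp3 than in Cd4 cells (log2 difference 1.32, SE 0.24, adjusted p = 0.00025), but without knockdown replicate 2 the difference was 0.83 (adjusted p = 0.194).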

How the results depend on the processing

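Same-numbered libraries did not deviate together, and with a replicate block the calls of the receptors were 3 in Cd4, 4 in Cd8 and 1 in Foxp3 cells, as without it, among 1314, 1215 and 29 genes called. Cxcr6 kept its direction and its side of the threshold in all 3 classes under each of the 15 alternatives. Cells thinned to 2000 UMIs gave 1 called receptor among 816 called of 9247 genes in Cd4 cells. Mitochondrial UMIs up to 10% gave 2 called receptors among 1007 called of 11717 genes in Cd8 cells, and 2 among 1110 of 11453 in Cd4 cells. The 29 genes called in Foxp3 cells became 9 with DESeq2, 60 without doublet removal, 64 without an upper limit on genes, 55 at 10% mitochondrial UMIs, 6 with stricter classes, 44 without cells with myeloid UMIs, 12 after thinning, and 42 to 61 with a library left out. The split by Nkg7 was chosen after seeing the data, and so were its alternatives. In Nkg7+ Cd4 cells the 3 called receptors, among 216 called of 9633 genes, became 1 at 10% mitochondrial UMIs, among 152 of 9925. After thinning 1 was called, among 82 of 7121 genes. DESeq2 gave no adjusted p for Cxcr6 in Nkg7- Cd4 cells, so its count of receptors there is not given. With Cd44 in place of Nkg7, 3 receptors were called in Cd4 cells without Cd44 (Cxcr6, Cxcr4 and Ccr8) and 4 in Cd8 cells without it, and 1 in Cd8 cells with it (Cxcr6), beside 9.08%, 8.89% and 5.7% of all genes. In Cd4 cells with Cd44 2 were called (Cxcr6 higher, Cxcr4 lower), beside 9.86%, and Cxcr3 (-0.81) and Ccr2 (-0.43) were not. With a library left out, the log2 difference in effect between Cd8 and Cd4 cells was 1.63 to 2.09 for Ccr2 and -1.06 to -0.88 for Cxcr6. Between Foxp3 and Cd4 cells it was 0.83 to 1.71 for Cxcr4. The log2 fold change of the CCR8 tag was then 0.71 to 1.02 in Cd4 and 0.35 to 1.08 in Cd8 cells. All of these ranges but that of Ccr2 spanned the 2-fold limit.

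Directions turned only among values that passed no test, except 5 cases. These were Cxcr3 in Cd4 cells, whose log2 fold change was -0.59 with stricter classes (adjusted p = 0.00734, edgeR), the CCR2 tag in Cd4 cells, -0.21 to 0.75 with a library left out (adjusted p = 0.0382 at the low end, without knockdown replicate 1, and 0.000993 at the high end, without knockdown replicate 2), and, with Cd44 in place of Nkg7, Cxcr4 (-1.11) and Ccr9 (-1.01) in Cd8 cells without Cd44, both called, and Cxcr3 (-0.42, adjusted p = 0.0265) in Cd8 cells with it. The cases with Cd44 in place of Nkg7 compare different cells. Cd8 cells without Cd44 numbered 2357, 2024, 857 and 1219 in the control and knockdown libraries, against 141, 85, 17 and 29 without Nkg7. Those with Cd44 numbered 209, 207, 217 and 266, against 2425, 2146, 1057 and 1456 with Nkg7. For Ccr2 in Cd4 cells the log2 fold change was 0.019 without doublet removal, 0.021 at 10% mitochondrial UMIs and -0.23 to 0.024 with a library left out. For Ccr4 in Cd4 cells it was 0.038 with library-size scaling, 0.00086 without an upper limit on genes, 0.036 at 10% mitochondrial UMIs and -0.23 to 0.066 with a library left out. For Cxcr4 in Foxp3 cells it was -0.0029 without doublet removal, -0.21 with stricter classes, -0.12 after thinning and -0.34 to 0.37 with a library left out. In Nkg7- Cd4 cells Cxcr3 was -0.61 at the 0.8 doublet threshold, -1.42 with stricter classes, -0.072 after thinning and -0.46 to 0.83 with a library left out, Cxcr4 was 0.11 after thinning, and Ccr2 was -1.63 with stricter classes and -0.39 in cells without Cd44. In Nkg7+ Cd4 cells Ccr8 was -0.0017 with library-size scaling, -0.080 without doublet removal, -0.32 with stricter classes and -0.28 to 0.38 with a library left out. In Nkg7- Cd8 cells Ccr9 was -0.098 with library-size scaling, -0.085 without the filter on low counts, -0.067 without an upper limit on genes, -1.29 after thinning and -0.0049 to 0.040 with a library left out. With a library left out, Ccr9 in Foxp3 against Cd4 cells was -0.32 to 0.43, the difference in effect between Cd8 and Cd4 cells was -0.072 to 0.30 for Cxcr4, and that between Foxp3 and Cd4 cells was -0.14 to 0.42 for Cxcr3. The cause of these turns was not tested. Of 38 ratios of shares at other depths, 16 moved by more than the spread between libraries or, for Ccr9 in Foxp3 cells without thinning, from 0, and at 1000 UMIs those of Ccr9 (0.715 to 1.25) and Ccr4 (1.06 to 0.185) in Cd4 cells and Ccr2 (1.21 to 0.924) and Cxcr4 (0.928 to 1.04) in Foxp3 cells crossed 1, the last by less than that spread. The filter on low counts left out Ccr4 and Ccr8 in Cd8 cells and Ccr9 in Foxp3 cells. Without doublet removal Ccr8 was tested and called in Cd8 cells (2.93), and without the filter neither Ccr4 (0.58, adjusted p = 0.736) nor Ccr8 (2.91, adjusted p = 0.0589) was. Near 0 in control, Ccr8 could pass the filter only through knockdown and so only be called higher. Under the 4 alternatives that tested it, Ccr9 in Foxp3 cells was at -2.90 to -1.36 with adjusted p of 0.132 to 0.708.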
